A study of Sus scrofa with 45 samples.

Results

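GUCY1B3 encodes the beta subunit of soluble guanylate cyclase, and its level in pig blood was described over all 12 groups of the series. It is measured by 1 probe, found by searching the gene name, sequence name and description of the 43603 probes of the array other than control spots. GUCY1B3 was chosen by its array intensities in these samples, and which groups or contrasts were in view is not given in the sources used here. Its levels and differences are therefore given as a description, with no test for GUCY1B3.

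Soluble guanylate cyclase is a heterodimer of an alpha and a beta subunit, and the beta subunit carries the heme to which nitric oxide binds. Binding activates the enzyme to make cyclic GMP, which acts through cyclic GMP-dependent protein kinases, ion channels and phosphodiesterases. In vessels this pathway relaxes smooth muscle, and in blood it is best known from platelets, where it restrains activation.

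Male Clawn miniature pigs were fed a control diet, a diet high in fat and cholesterol (HFCD), or a diet high in fat, cholesterol and sucrose (HFCSD). Whole blood, from which RNA was prepared with the PAXgene kit, was sampled after 10, 19 and 27 weeks on the diets, and white blood cells, prepared with the LeukoLock kit, which catches leukocytes on a filter, at 27 weeks. Each of 45 samples was read on an array with 1 colour, which gave 33 arrays of whole blood and 12 of white blood cells. There were 4 arrays in each of 9 groups and 3 arrays in the whole blood groups HFCSD at 19 weeks, HFCD at 27 weeks and HFCSD at 27 weeks. Pigs of a diet were bled repeatedly, so feeding periods and sample types share pigs, and the labels do not say which arrays are from the same pig. The labels give no age, and a week here counts from the start of the diets. Replicate numbers are those of the labels and have no order. The number of arrays limits the precision of every value given here.

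Levels are log2 normalized intensities, that is, log2 of the background-subtracted spot intensity after the distributions of all 45 arrays were made equal. A difference of 1 on this scale is a fold of 2. A probe counted as above background on an array where the scanner software marked its spot as well above the local background. By that mark 35.4% to 53.3% of the spots of an array were above background, with a median of 43.9%. GUCY1B3 was above background on 44 of the 45 arrays, and the exception was HFCD replicate 1 in whole blood at 19 weeks. Its background-subtracted intensity before normalization was 9.83 to 289 with a median of 54.9, and the local background around the spot was 49 to 76. The spot was saturated on 0 arrays and marked as an outlier on 0 arrays. Among all probes of an array GUCY1B3 stood between percentile 55.5 and percentile 77.1, with a median of 69.5, so it was a probe of moderate brightness whose net signal was often of the size of the local background.

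The sequence of the probe is shown because every value of GUCY1B3 given here is the signal of this 1 sequence.
GUCY1B3: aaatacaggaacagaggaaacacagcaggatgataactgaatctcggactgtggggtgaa
It has 60 bases, of which 27 are G or C, a share of 45%. Over all probes this share had a median of 40% and quartiles of 35% and 43.3%, so the GUCY1B3 probe lay above the upper quartile. It is the 1 probe on the array with this sequence. In the pig assembly Sscrofa11.1, GUCY1B3 lies between GUCY1A3, the gene of its alpha subunit partner, and ASIC5, and the next genes on either side are LOC100621782 and TDO2.

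Over the 45 arrays the level of GUCY1B3 ranged from 3.84 to 6.89 with a median of 5.71. At 10 weeks in whole blood, GUCY1B3 was 6.61, 6.87, 6.48 and 6.77 in control replicates 1 to 4. In the HFCD replicates of that period it was 4.91, 5.36, 5.31 and 5.21. The HFCSD replicates had 6.54, 6.89, 6.12 and 6.52. All 4 HFCD arrays were low, below each control and each HFCSD array, while the control and HFCSD arrays overlapped. Before normalization the background-subtracted intensities of the 3 diets overlapped. They were 65.67, 80.97, 30.14 and 93.1 in control, 37.16, 28.99, 52.2 and 72.86 in HFCD, and 56.61, 69.02, 83.51 and 109.7 in HFCSD. The separation is thus one of normalized levels, and each alternative treatment was normalized between arrays as well.

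GUCY1B3 in whole blood at 19 weeks was 6.64, 5.40, 5.24 and 5.63 in control replicates 1 to 4. HFCD replicates had 3.84, 5.76, 5.88 and 5.32, of which the first is the value not above background. The values in the 3 HFCSD replicates were 5.38, 4.73 and 5.23. Control replicate 1 was the high array of this period and HFCD replicate 1 the low one, and the arrays of the 3 diets overlapped.

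At 27 weeks in whole blood the control replicates had GUCY1B3 levels of 5.63, 6.01, 5.98 and 6.61. The 3 HFCD replicates had 5.54, 5.71 and 5.11. In HFCSD the levels were 6.24, 5.96 and 5.69. The lowest array was an HFCD array and the highest a control array. HFCD replicate 2 lay above control replicate 1, so these groups overlapped as well. Before normalization HFCSD and control did not overlap in background-subtracted intensity. It was 62.57, 71.63, 63.51 and 46.5 in control and 30.77, 28.33 and 27.27 in HFCSD.

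In white blood cells at 27 weeks GUCY1B3 was 4.38, 6.30, 6.71 and 6.55 in control replicates 1 to 4. HFCD had 5.95, 4.19, 4.29 and 6.15. HFCSD had 5.84, 5.37, 5.46 and 5.24. Control replicate 1 and HFCD replicates 2 and 3 were low and the other control and HFCD arrays high, so that 3 arrays stood apart in these groups, while the HFCSD arrays lay close together between them.

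**Figure D1:**
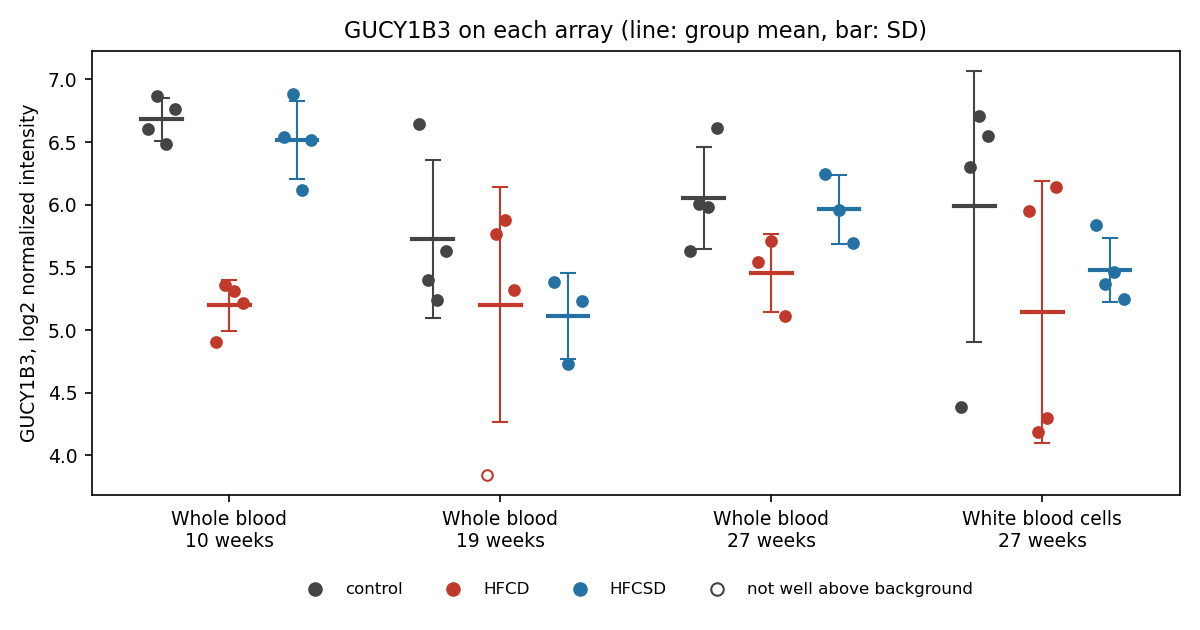
Log2 normalized intensity of GUCY1B3 on each of 45 arrays in 12 groups, with the mean as a line and the SD as a bar; the hollow point was not above background. The 4 HFCD arrays of whole blood at 10 weeks lie between 4.91 and 5.36, below every control and HFCSD array of that period.

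As group means (SD), GUCY1B3 in whole blood at 10 weeks was 6.68 (0.17) in control (n = 4), 5.20 (0.20) in HFCD (n = 4) and 6.52 (0.31) in HFCSD (n = 4). At 19 weeks the means were 5.73 (0.63) in control (n = 4), 5.20 (0.94) in HFCD (n = 4) and 5.11 (0.34) in HFCSD (n = 3). At 27 weeks they were 6.06 (0.41) in control (n = 4), 5.46 (0.31) in HFCD (n = 3) and 5.96 (0.27) in HFCSD (n = 3). White blood cells had 5.99 (1.08) in control (n = 4), 5.15 (1.05) in HFCD (n = 4) and 5.48 (0.26) in HFCSD (n = 4). The control group had the highest mean of the 3 diets in each period and sample type. Spread was smallest in control whole blood at 10 weeks and largest in control white blood cells.

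Ordered from the highest mean, the groups were control at 10 weeks, HFCSD at 10 weeks, control at 27 weeks, white blood cells on control, HFCSD at 27 weeks, control at 19 weeks, white blood cells on HFCSD, HFCD at 27 weeks, HFCD at 19 weeks, HFCD at 10 weeks, white blood cells on HFCD, and HFCSD at 19 weeks, whole blood unless named otherwise. Of the 11 pairs of neighbours in this order, 1 differed by more than the pooled SD of its groups, HFCSD at 10 weeks over control at 27 weeks, with a difference of 0.46 and a pooled SD of 0.36. The other neighbours did not differ beyond their spread, and the arrays overlapped in all 11 pairs. The order of GUCY1B3 levels is thus not resolved at most of its steps.

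Each diet was set against control within a period and sample type to ask how the level of GUCY1B3 stood under that diet, and both diets of a period were compared with the same control arrays. GUCY1B3 was lower than control in all 8 of these differences, in 7 of 8 with the replicate number or the slide as a block, and 3 of the 8 were larger than the pooled SD of the groups. At 10 weeks the HFCD mean of GUCY1B3 minus the control mean was -1.48 (standard error 0.13; pooled SD 0.19), 2.8-fold lower. The highest HFCD array and the lowest control array were 1.12 apart. The size of this difference depends on how the background is treated, for with normexp correction, which compresses dim signals, it was -0.77 (standard error 0.07), still without overlap. The share of all probes tested whose groups do not overlap is given for each comparison as its background, and nothing is read from GUCY1B3 against it, because GUCY1B3 was chosen with its values in view. In this comparison 5.35% had groups that did not overlap, 2.40% with every HFCD array below every control array. For HFCSD at 10 weeks the difference from control was -0.16 (standard error 0.18), within the spread of the arrays, which overlapped (background 0.976%).

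With HFCSD set against HFCD, diets that by the labels differ in the added sucrose, GUCY1B3 at 10 weeks was higher in HFCSD by 1.32 (standard error 0.19; pooled SD 0.26), 2.5-fold. Here too the arrays did not overlap, with 0.76 between the lowest HFCSD and the highest HFCD array, as for 2.64% of all probes tested, and with normexp the difference was 0.68 (standard error 0.08). At 10 weeks the normalized level of GUCY1B3 was thus low in the HFCD arrays alone and not in the HFCSD arrays. Both diets were high in fat and cholesterol, and the cause was not tested. The difference between HFCSD and HFCD was -0.09 (standard error 0.51) at 19 weeks, 0.51 (standard error 0.24) at 27 weeks in whole blood and 0.33 (standard error 0.54) in white blood cells. Arrays of both diets overlapped in these 3 comparisons of GUCY1B3 (background 3.12%, 16.6% and 1.37%), and the difference at 27 weeks in whole blood was larger than the pooled SD of 0.29.

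GUCY1B3 at 19 weeks was lower than control by a difference of -0.53 (standard error 0.57) in HFCD and -0.61 (standard error 0.37) in HFCSD. The pooled SD was 0.80 and 0.53, so that the HFCSD difference passed it by little, and the arrays overlapped in both (background 7.45% and 18.3%). The HFCD difference rests on replicate 1, at 3.84 and not above background, without which it was -0.07. Control replicate 1, at 6.64, was the 1 control array of this period scanned on the same day as the diet arrays, and control replicates 2 to 4, at 5.24 to 5.63, were scanned on another day. Against control replicate 1 alone the GUCY1B3 difference was -1.44 in HFCD and -1.53 in HFCSD, each over 1.5 times as large as with all 4 control arrays. Without control replicate 1 the HFCSD difference was -0.31, smaller than with all 4 control arrays. With a single control array on that scan day, a difference between days and a high array cannot be told apart.

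At 27 weeks in whole blood GUCY1B3 in HFCD minus control was -0.60 (standard error 0.27; pooled SD 0.37), and in HFCSD minus control -0.09 (standard error 0.26), which changed sign to 0.09 without 1 control array. HFCD stood lowest of the 3 diets as at 10 weeks, with a smaller difference and arrays that overlapped (background 6.19%), and HFCSD overlapped control as well (background 27.6%). In white blood cells the GUCY1B3 differences from control were -0.84 (standard error 0.75) in HFCD and -0.51 (standard error 0.56) in HFCSD. Their pooled SD of 1.06 and 0.79 was larger than the differences, and the arrays overlapped (background 2.88% and 6.17%). Both depend on control replicate 1, at 4.38, without which they were -1.38 and -1.04, and the lowest control array, at 6.30, then lay above every diet array. Whether the GUCY1B3 difference under a diet itself differed between periods or sample types was not tested.

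All whole blood arrays of 10 weeks were scanned on 1 day and lay on 3 slides, so the diets could be compared within a slide. GUCY1B3 in HFCD minus control was -1.70, -1.53 and -1.41 on slides 1, 2 and 3. Within the same slides HFCSD minus HFCD was 1.81, 0.78 and 1.31. Both differences kept their sign on each slide. The difference of HFCSD from control at 10 weeks was 0.11, -0.75 and -0.11 on the 3 slides, with a sign that changed between them.

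At 27 weeks GUCY1B3 in whole blood HFCD minus control was -0.68 and -0.41 on the 2 slides that held both, slides 12 and 13. HFCSD minus control was -0.01 and -0.05 on slides 11 and 12. In white blood cells HFCD minus control was -2.52, -0.25 and -1.17 on slides 14, 15 and 16, below 0 on each but of very unequal size. HFCSD minus control on these slides was -1.17, -0.84 and -0.10. HFCSD minus HFCD was 1.36, -0.59 and 1.08 there, with a sign that changed between slides. At 19 weeks slide 10 alone held a control and an HFCD array, which differed in GUCY1B3 by -0.88, and HFCSD minus HFCD was 1.39, -0.50 and -0.59 on slides 7, 8 and 9.

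**Figure D2:**
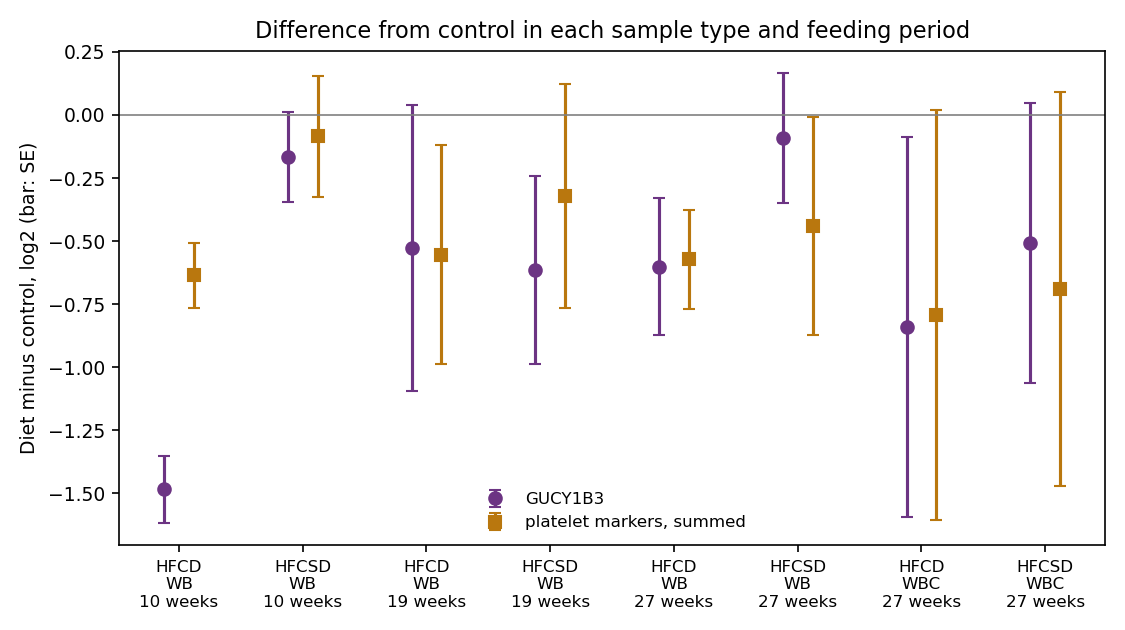
Difference of each diet from control in log2 units for GUCY1B3 and for the summed platelet markers in 8 comparisons, with bars for the standard error. The GUCY1B3 differences lie below 0 in all 8, from -1.48 for HFCD at 10 weeks to -0.09 for HFCSD at 27 weeks in whole blood, the 1 whose sign depends on the setting.

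White blood cells were set against whole blood of the same diet at 27 weeks, which asks where the signal of GUCY1B3 lay in blood. The sample types differ in the RNA kit and were scanned on different days, so type, kit and day cannot be told apart. GUCY1B3 in white blood cells minus whole blood was -0.07 (standard error 0.58) on control, -0.31 (standard error 0.55) on HFCD and -0.49 (standard error 0.20) on HFCSD. With 1 array left out it was -0.31 to 0.46 on control and -0.64 to 0.01 on HFCD, so these signs depend on single arrays. Arrays of the sample types overlapped in all 3 diets (background 39%, 51.0% and 59.6%), and the difference on HFCSD was larger than its pooled SD of 0.26. GUCY1B3 was above background on all 12 white blood cell arrays, so its RNA was measured in this preparation as well as in whole blood.

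Over time in whole blood, GUCY1B3 on control was lower at 27 than at 10 weeks by a difference of -0.62 (standard error 0.22), and at 19 than at 10 weeks by -0.95 (standard error 0.33). In HFCSD the differences from 10 weeks were -0.55 (standard error 0.22) at 27 weeks and -1.40 (standard error 0.25) at 19 weeks, the latter 2.64-fold lower and -0.69 (standard error 0.11) with normexp. In HFCD they were 0.26 (standard error 0.21) at 27 weeks and 0.00 (standard error 0.48) at 19 weeks. GUCY1B3 was thus lower after 10 weeks on control and HFCSD, while in HFCD, where it already lay low at 10 weeks, later means were no lower. Between 19 and 10 weeks the HFCSD arrays did not overlap, with 0.74 between them, as for 27.9% of all probes tested. In the other 5 comparisons over time the GUCY1B3 arrays overlapped, with a background of 22.8% and 16.4% at 27 and 19 weeks on control, 22.1% and 16.4% on HFCD, and 30.3% at 27 weeks on HFCSD. With normexp the HFCSD arrays of 27 and 10 weeks did not overlap either, with a difference of -0.31 (standard error 0.11). The arrays of each period were scanned on days of their own, so period and scan day cannot be told apart.

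Among all 21 differences between groups computed for GUCY1B3, 3 had arrays that did not overlap, and 18 overlapped. The 3 were HFCD against control and HFCSD against HFCD at 10 weeks, and HFCSD at 19 against 10 weeks. They share arrays, since each involves HFCD or HFCSD at 10 weeks.

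The alpha subunit that pairs with GUCY1B3 is encoded by GUCY1A3, which had 2 probes. One of them was above background on 39 of 45 arrays and the other on 0 of 45, so the values given are those of the first. In whole blood at 10 weeks GUCY1A3 was 4.30, 5.35, 2.93 and 4.97 in control, the 2.93 not above background. HFCD had 4.72, 4.37, 4.89 and 4.85. HFCSD had 4.55, 5.64, 4.76 and 5.03. The 3 diets overlapped in GUCY1A3, and the HFCD arrays that were low in GUCY1B3 lay in the range of the controls in GUCY1A3.

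GUCY1A3 means (SD) in whole blood were 4.39 (1.06), 4.71 (0.24) and 4.99 (0.47) at 10 weeks in control, HFCD and HFCSD. They were 4.84 (0.46), 3.52 (2.49) and 4.88 (1.06) at 19 weeks, and 5.73 (0.31), 4.92 (0.19) and 4.95 (1.18) at 27 weeks. White blood cells had 6.17 (2.19), 5.38 (1.87) and 5.64 (1.34). These means hold arrays not above background, 2 of 4 in HFCD at 19 weeks and 1 each in control at 10 weeks, HFCSD at 27 weeks, and control and HFCD in white blood cells. HFCD minus control was 0.32 (standard error 0.54) at 10 weeks, and -0.16 without the control array not above background. GUCY1B3 had its largest difference from control there, with all arrays and no block. At 27 weeks GUCY1A3 in HFCD minus control was -0.80 (standard error 0.19), and the GUCY1A3 arrays of HFCD and control did not overlap, as for 6.19% of all probes tested. The GUCY1A3 difference at 10 weeks thus depends on 1 dim array, and at 27 weeks its unadjusted p in limma was over 0.05 and the GUCY1B3 arrays overlapped, so no shared pattern is read from either period.

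Over all 45 arrays GUCY1A3 had a Pearson correlation (r) of 0.490 and a Spearman correlation of 0.402 with GUCY1B3, and r was 0.328 without the 2 arrays farthest from the median. Correlations are given as a description, over arrays that share slides, scan days and groups, with no p. Over the 33 whole blood arrays r was 0.390, over the 12 white blood cell arrays 0.869, and over the deviations of all arrays from their group means 0.717. Within scan days r was 0.0996 (Spearman 0.413) over the 12 arrays of day 1, 0.581 over the 8 of day 3, 0.385 over the 10 of day 4 and 0.869 over the 12 of day 5, and day 2 held too few arrays. In white blood cells control replicate 1 and HFCD replicate 2 were low in both, and GUCY1A3 was not above background there, at 2.91 and 2.76, while HFCD replicate 3, the other low array of GUCY1B3, had a GUCY1A3 level of 5.46 above background. On the arrays where GUCY1A3 was above background, its r with GUCY1B3 was 0.313 over 39 arrays, 0.211 over 29 of whole blood and 0.75 over 10 of white blood cells.

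The pathway around GUCY1B3 was followed in lists of genes for nitric oxide supply, the soluble subunits, other guanylate cyclases and their ligands, breakdown and export of cyclic GMP, and its effectors. The array names 9 of 19 genes listed for nitric oxide supply, 2 of 4 subunits, 6 of 14 other cyclases and ligands, 7 of 18 genes for breakdown and export, and 9 of 20 effectors. Never above background were NOSTRIN and ASS1 of the supply genes, GUCY2C, NPR1, NPPB and NPPA of the other cyclases and ligands, the exporter ABCC5, and the effectors CNGA1, KCNMA1 and PRKG2. PRKG1, the kinase through which cyclic GMP acts in platelets and smooth muscle, was above background on 9 arrays, and PDE5A, which breaks down cyclic GMP, on 6. Much of the pathway on either side of GUCY1B3 was therefore too dim to be read on these arrays.

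The members other than GUCY1B3 were tested with limma, a moderated linear model over all probes above background on every array of a compared group. A member was called where a probe had an adjusted p (Benjamini-Hochberg over all probes) under 0.05. Arrays were fitted as independent, also between sample types and periods, which share pigs. Where GUCY1B3 differed most from control with all arrays and no block, HFCD at 10 weeks, limma called 0 of 11 members tested, beside 0.0281% of all probes. At an unadjusted p under 0.05 in limma stood 1 of the 11 members, beside 10.0% of all probes, so the members were at the background. That 1 was PDE2A, a phosphodiesterase stimulated by cyclic GMP, with a difference of -1.26 (standard error 0.40; limma adjusted p = 0.344) and every HFCD array below every control array. The lowest of these control arrays, at 4.92, was not above background and lay close to the highest HFCD array, at 4.83, so nothing is read from the lack of overlap. HFCD against control gave 0 calls in limma also at 19 and 27 weeks in whole blood and in white blood cells, beside 0.0181%, 0.0165% and 0.0276% of all probes. At an unadjusted p under 0.05 stood 2 of 10, 0 of 11 and 0 of 8 members, beside 12.5%, 5.55% and 4.73% of all probes. HFCSD against control gave 0 calls in limma at 10 and 19 weeks and in white blood cells, beside 0.0123%, 0.0175% and 0.0366% of all probes. Here 0, 2 and 0 of 10 members stood at an unadjusted p under 0.05, beside 1.73%, 11.9% and 11.3% of all probes. The median difference of the members in these 7 comparisons lay between -0.32 and 0.06, beside -0.03 to 0.09 for all probes tested.

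At 27 weeks in whole blood the normalized GUCY1B3 levels of HFCSD and control hardly differed. There limma called 2 of 10 members in HFCSD against control, beside 10.6% of all probes. At an unadjusted p under 0.05 in limma stood 4 of 10, beside 32.2% of all probes. NPR2, a receptor guanylate cyclase, was 5.91, 5.83, 5.97 and 6.51 in control and 7.97, 7.24 and 6.89 in HFCSD. It rose by 1.31 (standard error 0.31, limma adjusted p = 0.0295), with all 3 HFCSD arrays above every control array. In this comparison 27.6% of all probes tested had groups that did not overlap, in either direction. RGS2, a regulator of G protein signalling that is a target of the cyclic GMP-dependent kinase, changed by -1.36 (standard error 0.36; limma adjusted p = 0.041) on 1 of 2 probes tested, with all 3 HFCSD arrays below every control array. Control and HFCSD arrays share slides, and with the slide as a block the RGS2 change was -1.13 and the call was lost (limma adjusted p = 0.108), while that of NPR2 was kept. The NPR2 call was lost with normexp, where the change was 0.74 (limma adjusted p = 0.057), with no filter on dim probes and with the methods' t-test after adjustment, and was kept in 5 of 10 fits without 1 array. In the same arrays the summed smooth muscle markers (7 of 13 on the array, 0 never above background, DES brightest) were 10.10, 10.24, 10.54 and 10.78 in control and 12.53, 12.21 and 11.81 in HFCSD. The HFCSD arrays lay above every control array, by 1.77 (standard error 0.26) in the mean, unlike those of GUCY1B3, and the part of these markers in the NPR2 and RGS2 changes was not tested. The median of the members was -0.21, as was that of all probes.

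Between sample types, where GUCY1B3 overlapped in each diet, limma called 3 of 11 members on control, 4 on HFCD and 7 on HFCSD, beside 45.3%, 47.5% and 58.8% of all probes. These counts hold members that passed the filter through 1 sample type, so the shares are not compared. At an unadjusted p under 0.05 stood 4, 5 and 8 of 11, beside 52.4%, 54.7% and 63.5% of all probes, and the medians of the members were 0.37, 0.42 and 0.63, beside 0.17, 0.19 and 0.42 for all probes. ARG1, which competes for the substrate of nitric oxide synthases, was lower in white blood cells on all 3 diets, on control by -3.02 (standard error 0.74; limma adjusted p = 0.00263), with all 4 arrays below every whole blood array. That call was lost with the methods' t-test after adjustment. A probe that was above background on every array of the higher sample type alone entered the test by being high there, and nothing is read from such calls. They were 2 of 3 called probes on control (PDE6D and RGS2), 2 of 6 on HFCD (NOS3 and 1 probe of RGS2) and 4 of 10 on HFCSD (NOS3, PDE2A, PDE6D and 1 probe of RGS2). Apart from ARG1, the calls read on every array of both sample types were PDE6D and RGS2, higher on HFCD, and RGS2 and SLC7A1, higher, and NPR2, lower, on HFCSD. Without replicate 1 of HFCSD whole blood the NPR2 change was -0.49 (limma adjusted p = 0.14) and the SLC7A1 change 0.61 (limma adjusted p = 0.0709), and both calls were lost, the former also with the methods' t-tests and the latter with the methods' fold. Without replicate 2 of HFCD whole blood the PDE6D change on HFCD was 0.77 and the call was lost (limma adjusted p = 0.0613), as it was with the methods' t-test after adjustment.

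From 10 to 27 weeks in whole blood, while GUCY1B3 means were lower on control, limma called 3 of 10 members on control, all higher, beside 20.5% of all probes, and 7 of 10 stood at an unadjusted p under 0.05, beside 36.8%. GUCY1A3 was one of them, which rose by 1.34 (limma adjusted p = 0.0445; standard error 0.43) with 3 of the 4 arrays of 27 weeks above every array of 10 weeks, the opposite sign to GUCY1B3. Its probe was above background on 4 of 4 arrays at 27 weeks and 3 of 4 at 10 weeks, so it entered the test through the period in which it was high, and nothing is read from this call. With normexp the change was 0.38 (limma adjusted p = 0.138), and the call was lost in 9 of 10 other settings and 8 of 12 fits without 1 array, among them control replicate 3 at 10 weeks, without which the change was 0.86 (limma adjusted p = 0.0903). PPP1R12A, the myosin phosphatase subunit, rose by 1.03 on control (limma adjusted p = 0.0461) with 4 of 4 arrays above every array of 10 weeks. Of all probes tested 22.8% did not overlap in this comparison, in either direction. RGS2 rose by 0.99 (limma adjusted p = 0.0314) with 3 of 4 arrays above every array of 10 weeks. The RGS2 call was kept in 6 of 10 other settings and 6 of 12 fits without 1 array, and lost with no filter on dim probes, with all arrays in 1 fit and with both of the methods' tests. On HFCSD 1 of 10 members was called, PPP1R12A, which rose by 0.97 (limma adjusted p = 0.0179) in 3 of 3 arrays, beside 13% of all probes, and 4 of 10 stood at an unadjusted p under 0.05, beside 31%. With the replicate number as a block the PPP1R12A call was lost on control (change 1.03; limma adjusted p = 0.0557) and on HFCSD (change 1.00; limma adjusted p = 0.0581), with changes as large as before, and the control call was kept in 2 of 12 fits without 1 array. On HFCD limma called 0 of 11, beside 3.01% of all probes, and 1 stood at an unadjusted p under 0.05, beside 18% of all probes. The medians of the members were 0.17 on control, 0.05 on HFCSD and 0.21 on HFCD, beside 0.08, -0.05 and 0.01 for all probes.

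Differences between diet changes were tested in limma for the members other than GUCY1B3, between sample types at 27 weeks and between 27 and 10 weeks in whole blood. Between sample types 0 members were called for HFCD and 0 for HFCSD, beside 0% and 1.38% of all probes, and 0 and 1 of 11 stood at an unadjusted p under 0.05, beside 1.33% and 19.2% of all probes. Between periods 0 were called for either diet, beside 0% of all probes for each, and 1 of 11 and 2 of 10 stood at an unadjusted p under 0.05, beside 2.72% and 14.9% of all probes.

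Of the pathway members read on most arrays, PDE2A and PDE3A were most like GUCY1B3. With PDE2A, GUCY1B3 had an r of 0.605 over 45 arrays (Spearman 0.595), 0.753 in whole blood, 0.163 in white blood cells and 0.533 over deviations from group means, and 0.520 without the 2 farthest arrays. PDE3A, a phosphodiesterase inhibited by cyclic GMP and known in platelets, had an r of 0.586 (Spearman 0.523), 0.496 in whole blood, 0.850 in white blood cells and 0.761 over deviations, and 0.479 without the 2 farthest arrays. PDE2A thus varied with GUCY1B3 in whole blood and PDE3A more in white blood cells. The latter r includes control replicate 1 and HFCD replicate 2, where PDE3A was not above background, at 2.85 and 2.97. NOS3 had an r of 0.465 (Spearman 0.376) and NPR2 of 0.406 (Spearman 0.370) with GUCY1B3, and without the 2 farthest arrays these were 0.322 and 0.272. NOS2, the inducible nitric oxide synthase, had an r of -0.454 with GUCY1B3 (Spearman -0.380; -0.376 without the 2 farthest arrays), the lowest of the named members.

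Because blood holds several cell types, GUCY1B3 was set beside lists of marker genes for platelets, neutrophils, monocytes, T cells, B cells, erythroid cells, endothelium and smooth muscle. The summed level of a list on an array is log2 of the sum of its genes' intensities. In bulk samples such as these, fewer cells of a type and less RNA per cell cannot be told apart.

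Of 22 platelet markers 10 were on the array, CD9, F13A1, ITGA2B, ITGB3, P2RY12, PF4, PPBP, SELP, SPARC and THBS1. Of these 7 were above background on all 45 arrays and 0 were never above background, and the brightest was PF4. At 10 weeks in whole blood, the platelet sum was 14.81, 15.37, 15.15 and 15.33 in control, 14.53, 14.56, 14.57 and 14.46 in HFCD, and 14.90, 15.55, 14.62 and 15.26 in HFCSD. As with GUCY1B3, the HFCD arrays were the 4 lowest of this period and did not overlap either other diet. Of all probes tested, 5.35% did not overlap between HFCD and control and 2.64% between HFCSD and HFCD, in either direction. HFCD minus control was -0.64 (standard error 0.13) in the platelet sum and HFCSD minus HFCD 0.55 (standard error 0.20), each smaller than the difference of GUCY1B3 in the same arrays.

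At 19 weeks the platelet sum was 14.97, 14.90, 15.11 and 14.77 in control, 13.45, 14.88, 15.30 and 13.90 in HFCD, and 14.84, 13.77 and 15.24 in HFCSD. HFCD replicate 1, the lowest array of GUCY1B3 in the series, was also the lowest of this period in the platelet sum, while control replicate 1, the high array of GUCY1B3, lay among the other controls. At 27 weeks it was 15.25, 15.13, 15.43 and 15.36 in control, 14.50, 15.08 and 14.57 in HFCD, and 15.51, 14.98 and 14.06 in HFCSD. The HFCD arrays lay below every control array, as they did not in GUCY1B3, beside 6.19% of all probes tested without overlap in either direction. White blood cells had 13.73, 15.97, 16.15 and 16.29 in control, 15.42, 13.32, 14.51 and 15.73 in HFCD, and 15.83, 15.56, 14.13 and 13.88 in HFCSD. Control replicate 1 and HFCD replicate 2, low in GUCY1B3, were low here too. HFCD replicate 3, the other low array of GUCY1B3, was not as low here, at 14.51, and HFCSD replicates 3 and 4 were low in the platelet sum and not in GUCY1B3.

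As means (SD), the platelet sum in control, HFCD and HFCSD was 15.17 (0.26), 14.53 (0.05) and 15.08 (0.41) at 10 weeks in whole blood. It was 14.94 (0.14), 14.38 (0.85) and 14.62 (0.76) at 19 weeks, and 15.29 (0.13), 14.72 (0.32) and 14.85 (0.74) at 27 weeks. In white blood cells it was 15.54 (1.21), 14.75 (1.08) and 14.85 (0.99). Like GUCY1B3, the platelet sum had its highest mean in control in each period and sample type, and the differences from control were below 0 in all 8 comparisons. They were -0.08 (standard error 0.24) in HFCSD at 10 weeks, -0.55 (standard error 0.43) and -0.32 (standard error 0.44) in HFCD and HFCSD at 19 weeks, and -0.57 (standard error 0.20) and -0.44 (standard error 0.43) at 27 weeks. In white blood cells they were -0.79 (standard error 0.81) in HFCD and -0.69 (standard error 0.78) in HFCSD. Where GUCY1B3 in HFCSD differed between 19 and 10 weeks without overlap, the platelet sum differed by -0.47 (standard error 0.48).

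Over 45 arrays the platelet sum and GUCY1B3 had an r of 0.738 and a Spearman correlation of 0.711, and r was 0.658 without the 2 farthest arrays. In whole blood r was 0.726, in white blood cells 0.874, and over deviations from group means 0.780. Within scan days r was 0.869 on day 1 (12 arrays), 0.760 on day 3 (8 arrays), 0.633 on day 4 (10 arrays) and 0.874 on day 5 (12 arrays). GUCY1B3 thus went with the platelet markers within each scan day that held enough arrays and within each sample type. The kit for white blood cells is meant to let platelets pass, yet the platelet sum on these arrays ran from 13.32 to 16.29, so RNA of platelet markers was present in these preparations in unequal amounts. The part of the platelet markers, and of platelets carried over in white blood cells, in the GUCY1B3 differences was not tested.

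**Figure D3:**
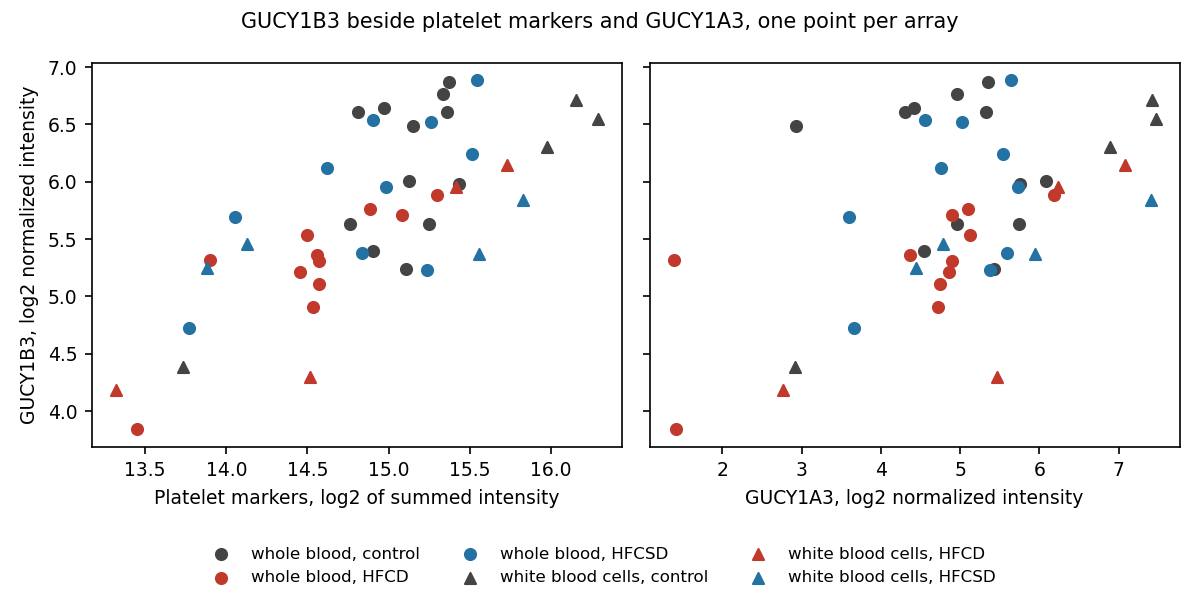
GUCY1B3 log2 level against the log2 sum of platelet markers (left) and against GUCY1A3 (right), 1 point per array, circles for whole blood and triangles for white blood cells, colours for diets. GUCY1B3 goes with the platelet sum over the 45 arrays (r 0.738) and less with GUCY1A3 (r 0.490).

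Taken gene by gene, the platelet markers were not alike in how they went with GUCY1B3. Of the 10, 5 had an r over 0.5 with GUCY1B3 over 45 arrays, ITGB3 at 0.728, ITGA2B at 0.716, SELP at 0.684, PF4 at 0.623 and PPBP at 0.609, and 2 had an r below 0. As background, 74 of 1223 named genes with a probe above background on at least 23 arrays had an r over 0.5. CD9, which is bright on all arrays, had an r of -0.296 with GUCY1B3. At 10 weeks HFCD minus control was below 0 in 7 of the 10, and in 3 of them, PF4 at -0.84 (standard error 0.15), ITGA2B at -0.65 (standard error 0.18) and PPBP at -1.43 (standard error 0.19), no array overlapped. Of all probes tested 5.35% did not overlap in this comparison and 2.40% had every HFCD array below every control array. In THBS1 it was -1.16 (standard error 0.94) and in CD9 0.04 (standard error 0.18). The other 7 platelet markers had arrays that overlapped at 10 weeks, unlike GUCY1B3.

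The other lists with an r over 0.5 with GUCY1B3 were endothelium and smooth muscle. For endothelium 7 of 10 markers were on the array, 0 never above background, PECAM1 brightest, and its sum had an r of 0.588 with GUCY1B3 (Spearman 0.632), 0.719 in whole blood, 0.875 in white blood cells and 0.521 without the 2 farthest arrays. As with the platelet sum, r was above 0 within scan days, at 0.803, 0.672, 0.542 and 0.875 on days 1, 3, 4 and 5. PECAM1 and VWF of this list are also known in platelets. At 10 weeks its sum in HFCD minus control was -0.56 (standard error 0.17). As with GUCY1B3 no HFCD array overlapped a control array, beside 2.40% of all probes tested in that direction. For smooth muscle 7 of 13 were on the array, 0 never above background, DES brightest, and its sum had an r of 0.581 with GUCY1B3 (Spearman 0.516), 0.491 in whole blood, 0.805 in white blood cells and 0.431 without the 2 farthest arrays. At 10 weeks it differed by -0.36 (standard error 0.38) in HFCD from control, with overlap.

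T cell markers, 7 of 12 on the array with CD3D brightest, had an r of -0.461 with GUCY1B3 (Spearman -0.402; -0.304 without the 2 farthest arrays), the lowest of the lists, and within scan days it was -0.513, -0.958, -0.318 and -0.370 on days 1, 3, 4 and 5. Monocyte markers, 5 of 7 with LYZ brightest, had an r of -0.351 with GUCY1B3 (Spearman -0.240; -0.308 without the 2 farthest arrays). Neutrophil markers, 5 of 12 with MMP9 brightest, had an r of -0.025 with GUCY1B3 (Spearman 0.006; -0.053 without the 2 farthest arrays), 0.277 in whole blood and -0.637 in white blood cells. B cell markers, 3 of 8 with CD74 brightest, had an r of 0.204 with GUCY1B3 (Spearman 0.165; 0.096 without the 2 farthest arrays). In these 4 lists 0 markers on the array were never above background. Of 18 erythroid markers 2 were on the array, TFRC never above background and HBA1 on 1 array, so the erythroid sum, with an r of -0.103 (Spearman 0.022; -0.009 without the 2 farthest arrays), cannot be read beside GUCY1B3. HBE1, a globin gene outside that list, was above background on all 45 arrays with 2 probes, with an r of 0.668 and 0.654 with GUCY1B3 (Spearman 0.616 and 0.592), and 0.598 and 0.594 without the 2 farthest arrays. Its r was 0.714 and 0.615 in whole blood, 0.830 on both probes in white blood cells, and 0.835 and 0.790 over deviations from group means, so that it was among the 8 genes most like GUCY1B3 by whole blood and by deviations. At 10 weeks HBE1 in HFCD minus control was -1.39 (standard error 0.57) and -1.16 (standard error 0.56), with overlap, unlike GUCY1B3. The part of these lists and of HBE1 in the GUCY1B3 differences was not tested.

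The genes most like GUCY1B3 were taken as the 8 with the highest r over 45 arrays, among 1223 named genes with a probe above background on at least 23 arrays. Over these genes r with GUCY1B3 ranged from -0.744 to 0.785 with a median of -0.007, and 74 genes had an r over 0.5. PDZK1IP1, a small membrane protein, was most like GUCY1B3, with an r of 0.785 (Spearman 0.761), 0.779 in whole blood, 0.859 in white blood cells, 0.818 over deviations from group means and 0.717 without the 2 farthest arrays. CIDEB, a lipid droplet protein, had an r of 0.783 (Spearman 0.740), 0.773 in whole blood, 0.880 in white blood cells, 0.865 over deviations and 0.712 without the 2 farthest arrays. Next came FTH1, the ferritin heavy chain, at 0.734 (Spearman 0.659; 1 of 10 probes), ITGB3 at 0.728 (Spearman 0.708), TBPRF10 at 0.725 (Spearman 0.662) and MFSD6 at 0.724 (Spearman 0.647). ITGA2B at 0.716 (Spearman 0.724) and the organic cation transporter OCT1 at 0.688 (Spearman 0.694) closed the list. For these 6 genes r with GUCY1B3 was 0.615 to 0.752 in whole blood, 0.842 to 0.877 in white blood cells, 0.702 to 0.871 over deviations and 0.595 to 0.657 without the 2 farthest arrays. ITGB3 and ITGA2B, the chains of the platelet fibrinogen receptor, are also in the platelet list.

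All 8 of the genes most like GUCY1B3 had a lower mean in HFCD than in control at 10 weeks, by -1.20 to -0.19, and in 5 of the 8 no array overlapped, beside 2.40% of all probes in that direction. PDZK1IP1 differed by -1.20 (standard error 0.28) and CIDEB by -0.98 (standard error 0.22), both smaller than the difference of GUCY1B3 without normexp. With normexp the GUCY1B3 difference was -0.77, so this order is given for the main background treatment only. All 8 were higher in HFCSD than in HFCD at that period, by 0.35 to 1.00, with OCT1 the 1 gene without overlap, beside 2.64% of all probes. In HFCSD against control at 10 weeks 5 were lower and 3 higher, by -0.31 to 0.24, and 0 were without overlap, as with GUCY1B3, beside 0.976% of all probes. Since these genes were picked for following GUCY1B3 over the same arrays, their likeness at 10 weeks is part of the choice and adds no separate observation.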

How the data were processed

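Values are the intensity of each spot deposited as text files per array, which per the file headers Agilent Feature Extraction (10.5.1.1; the submitters' notes name 9.5.3.1) had background subtracted. The authors' deposited series table, a linear intensity after their own quantile normalization, served as an alternative. Groups follow the labels. Log2 intensities of all spots other than control spots were quantile normalized across the 45 arrays. The 1 to 31 spots per array that the software marked as outliers were then left out, and the others were averaged per probe. This was done in R 4.3.3 with limma 3.58.1, with version 1.17.8 of data.table. Tables and plots were made with Python 3.11.15, numpy 2.4.6, pandas 2.3.3 and matplotlib 3.10.9.

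The annotation of the array gave a gene name to 3025 probes, 2043 names in all. Pathway members other than GUCY1B3 were tested with limma, two-sided, each fit holding the 3 diets of a period and sample type, the 6 groups of 27 weeks, the 3 periods of a diet, or, for differences between periods, the 9 whole blood groups. A p from these fits measures the spread between these samples. The main fits treat arrays as independent, although periods and sample types share pigs. A p over time or between sample types therefore does not take repeated samples of a pig into account. Members named are those of a list that passed (at most 6), up to 3 further ones above background on most arrays, 3 markers per list and the 8 genes most like GUCY1B3, and further platelet markers were named after their values were seen. The gene, the lists and the rules were chosen with earlier results of these data known. Probes without a gene name were left out of the lists, and the fits were tested on simulated data.

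Alternatives were scaling to the 75th percentile, normexp background correction with an offset of 50, the values of the series matrix, blocks for replicate number, slide and scan, scan 3 alone at 19 weeks, no filter or a weaker filter on dim probes, fits of only the groups compared or of all arrays, the tests of the methods with a fold of 2, other measures of likeness, and leaving out each array.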

Additional observations from a re-analysis of the deposited data

Results flagged for a closer look

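In groups of 4 arrays, the highest or lowest array was set apart where Dixon's ratio, its distance from the next array over the whole range, passed the critical value for a 5% error. GUCY1B3, GUCY1A3, the platelet sum and the 8 genes most like GUCY1B3 were looked at in 9 groups each, 99 in all, and 15 had such an array. The ratio serves here to pick out arrays and is no test, since GUCY1B3 was chosen with its values in view and the 8 genes for following it. In independent series chance gives about 1 in 20 groups, and nothing is read from the 15 against that.

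Control replicate 1 of white blood cells, at 4.38 one of the low arrays of GUCY1B3, was far below its group in 8 series. GUCY1A3 was 2.91 there, not above background, and 6.89 on the nearest control array, and the platelet sum 13.73 and 15.97. CIDEB was 6.47 and 9.91, FTH1 14.51 and 16.34, ITGB3 7.99 and 13.47, MFSD6 6.40 and 7.90, ITGA2B 8.62 and 13.92, and OCT1 5.96 and 10.32 on that array and the nearest other. With this array left out, GUCY1B3 in white blood cells differed from control by -1.38 in HFCD and -1.04 in HFCSD. Its cause was not tested.

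Control replicate 1 of whole blood at 19 weeks, the high array of GUCY1B3 in that period, stood above its group in CIDEB, at 9.21 beside 8.27 on the nearest array, and in MFSD6, at 7.86 beside 6.90. HFCD replicate 1 of that period, the lowest array of GUCY1B3, was low in FTH1, at 14.04 beside 16.14, and in TBPRF10, at 10.40 beside 11.68. The remaining 3 were PDZK1IP1 in control replicate 1 at 10 weeks, low at 7.82 beside 8.29, FTH1 in HFCSD replicate 3 at 10 weeks, low at 15.91 beside 16.62, and FTH1 in control replicate 2 at 27 weeks, high at 15.78 beside 15.34.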

How the results depend on the processing

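Under scaling, background, blocking and filter alternatives, 94 values of the GUCY1B3 differences moved by less than the spread between arrays and 7 by more. With normexp, which compresses dim signals, HFCD minus control at 10 weeks was -0.77, HFCSD minus HFCD 0.68 and HFCSD at 19 minus 10 weeks -0.69. With a block for scan day, and likewise within scan 3, the differences from control at 19 weeks were -1.44 in HFCD and -1.53 in HFCSD, since 1 control array remained on that day. All 8 diet differences of GUCY1B3 stayed below 0 with the 75th percentile, normexp and the deposited table, and 7 of 8 with a block for replicate number or slide. With the replicate block, GUCY1B3 in HFCD minus control was -1.48 at 10 weeks and -0.42 at 27 weeks, and HFCSD minus control at 27 weeks changed sign, from -0.09 to 0.09, and to 0.01 with the slide block. The differences without overlap numbered 3 with quantile normalization, the 75th percentile and the deposited table, and 4 with normexp, which added HFCSD at 27 against 10 weeks. The median of all probes shifted by -0.08 to 0.19 with the 75th percentile and by -0.19 to 0.09 with normexp.

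Arrays with the same replicate number in different weeks of a diet had a median correlation of deviations of 0.217, beside -0.0885 for other pairs. Over 0.1 were 20 of 31 pairs with the same number and 32 of 90 others. Between whole blood and white blood cells of a diet they were 6 of 10 and 7 of 30. These correlations cannot decide whether a number stands for the same pig, and the main fits treat arrays as unpaired.

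Leaving out 1 array gave GUCY1B3 differences from control of -1.55 to -1.39 (HFCD) and -0.29 to -0.03 (HFCSD) at 10 weeks, -0.75 to -0.07 and -0.78 to -0.31 at 19 weeks, -0.74 to -0.42 and -0.23 to 0.09 at 27 weeks, and -1.38 to -0.52 and -1.04 to -0.27 in white blood cells. HFCSD minus HFCD was 1.20 to 1.45 at 10 weeks, -0.54 to 0.14 at 19 weeks, 0.34 to 0.64 at 27 weeks and 0.01 to 0.67 in white blood cells. White blood cells minus whole blood was -0.31 to 0.46 on control, -0.64 to 0.01 on HFCD and -0.62 to -0.35 on HFCSD. From 10 to 27 weeks it was -0.81 to -0.48, 0.13 to 0.43 and -0.69 to -0.42 in control, HFCD and HFCSD, and from 10 to 19 weeks -1.26 to -0.79, -0.22 to 0.46 and -1.54 to -1.21.

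The count of pathway members called under the diets, 2 with limma, was 1 with the 75th percentile, 1 with normexp, 0 with no filter on dim probes, 1 with the weaker filter, 3 each with the replicate block, the slide block and only the groups compared, 8 with the methods' fold and unadjusted p and 0 with its adjusted p. For 27 against 10 weeks, 4 calls became 1 with the replicate block, 1 with no filter, 2 with all arrays in 1 fit, and 2 and 2 with the methods' tests. For differences between diet changes, 0 became 1 with the replicate block. The cause was not tested. Leaving out 1 array gave 0 to 3 calls under the diets, 12 to 16 between sample types, 1 to 5 over time and 0 to 1 for differences. The call of NPR2 under HFCSD was kept in 5 of 10 fits without 1 array (limma adjusted p = 0.108 without HFCSD replicate 1) and that of RGS2 in 4 of 10 (limma adjusted p = 0.119 without the same array). Over time PPP1R12A on control was kept in 2 of 12 (limma adjusted p = 0.103 without replicate 3 of 27 weeks), RGS2 in 6 of 12 (limma adjusted p = 0.0972 without replicate 1 of 27 weeks) and PPP1R12A on HFCSD in 7 of 10. Of the 8 genes most like GUCY1B3, 5 were shared with the top 8 by Spearman, 3 in whole blood alone, 4 over deviations and 7 to 8 with 1 array left out.

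GUCY1B3 rests on 1 probe with a net signal near the local background, in 3 or 4 arrays per group, so small differences cannot be resolved.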
